A study of Mus musculus with 31 samples.

Results

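The difference between cigarette smoke and room air in lungs treated with lipopolysaccharide (LPS) was measured in AKR mice. Arrays of smoke-exposed, LPS-treated lungs were set against arrays of room-air, LPS-treated lungs. Whether smoke changed the response to LPS is a separate question, tested below as an interaction. The arrays were chosen by their titles alone: 2 arrays of AKR mice given smoke and then LPS (smoke LPS), which are all there are, and 3 of AKR mice given room air and then LPS (air LPS), so 5 of the 31 arrays of the series. Alongside them stand 3 arrays of AKR mice given smoke and then saline (smoke saline) and 3 given room air and then saline (air saline). These 6 have no LPS, and they serve to estimate the spread and to give the smoke effect without LPS. All 4 groups are male AKR mice labelled 6 weeks old, an inbred strain with no engineered allele, and each array is whole homogenised lung from a sample labelled a separate biological replicate. LPS in saline, or saline alone, went into the trachea after the exposure. By the titles these mice had 3 weeks of smoke or air, but by the study's design text the mice that were instilled had 6, so the length of exposure is uncertain. The labels used here give no dose of smoke or LPS and no time between instillation and dissection. Values are log2 intensities of Affymetrix mouse gene arrays. A difference of 1 is a doubling.

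LPS is the outer membrane endotoxin of Gram-negative bacteria, and it is sensed by Toll-like receptor 4 with its partner MD-2 and the carrier CD14. In the lung the alveolar macrophage is the first cell to meet it, and the cytokines and chemokines that follow draw in neutrophils and open the vessel wall. Cigarette smoke by itself changes alveolar macrophages, which take up particles and lipid, and it activates the aryl hydrocarbon receptor and the oxidant sensor NRF2.

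In the LPS-treated lungs 5 genes passed the test, all higher after smoke: Rnase2a, Hal, Marco, Saa2 and Slc16a6. The promoters of these genes are shown so that they can be read for the motifs of factors active in macrophages, in the acute phase and in the response to smoke. RefSeq promoters (build GRCm38.p6, 250 bases before to 50 after the gene's start) were at hand for 4 of the 5, Slc16a6 being the exception. Rnase2a is at chr14:51256063-51256362 on the minus strand, Hal at chr10:93488518-93488817 on the plus strand, Marco at chr1:120504975-120505274 on the minus strand and Saa2 at chr7:46751583-46751882 on the plus strand. Capitals mark matches, on either strand, to the aryl hydrocarbon receptor core GCGTG, the ETS core GAGGAA (bound by PU.1) or the C/EBP pattern TTNNGNAA; the antioxidant response pattern TGACNNNGC was searched as well and had no match.

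Rnase2a: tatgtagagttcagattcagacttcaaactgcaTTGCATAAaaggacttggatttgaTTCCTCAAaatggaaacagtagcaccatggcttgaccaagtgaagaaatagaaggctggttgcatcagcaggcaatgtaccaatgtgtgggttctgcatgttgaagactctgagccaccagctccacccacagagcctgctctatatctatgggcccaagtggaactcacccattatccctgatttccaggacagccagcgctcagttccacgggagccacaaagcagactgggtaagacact
Hal: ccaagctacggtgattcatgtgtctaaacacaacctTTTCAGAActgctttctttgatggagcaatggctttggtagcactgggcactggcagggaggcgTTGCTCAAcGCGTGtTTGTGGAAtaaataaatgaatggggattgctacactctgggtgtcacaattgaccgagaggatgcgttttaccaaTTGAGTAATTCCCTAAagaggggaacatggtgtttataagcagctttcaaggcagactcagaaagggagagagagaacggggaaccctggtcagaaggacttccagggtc
Marco: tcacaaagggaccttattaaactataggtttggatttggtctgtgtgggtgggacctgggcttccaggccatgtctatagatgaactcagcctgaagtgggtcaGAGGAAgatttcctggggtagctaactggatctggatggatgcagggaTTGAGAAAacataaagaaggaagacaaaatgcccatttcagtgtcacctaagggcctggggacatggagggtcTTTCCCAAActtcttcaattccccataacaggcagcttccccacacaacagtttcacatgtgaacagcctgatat
Saa2: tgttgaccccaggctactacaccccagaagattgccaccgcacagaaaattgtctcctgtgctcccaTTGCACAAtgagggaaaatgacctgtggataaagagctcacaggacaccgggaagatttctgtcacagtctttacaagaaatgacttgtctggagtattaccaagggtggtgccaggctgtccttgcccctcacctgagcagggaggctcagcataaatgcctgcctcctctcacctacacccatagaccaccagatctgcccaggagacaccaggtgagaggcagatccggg

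The C/EBP pattern was in all 4 promoters, with 2 matches in Rnase2a, 5 in Hal, 3 in Marco (2 of them overlapping by all but 1 base) and 1 in Saa2. It is a short pattern, and 40.7% of the 32851 promoters of this length held it. The ETS core was in Rnase2a, inside a C/EBP match, and in Marco, and 28.3% of all promoters held it. The aryl hydrocarbon receptor core was in Hal alone of the 4, beginning 141 bases before the start, against 32.4% of all promoters, and the antioxidant response pattern was in 12.4% of all promoters. These matches are letters in a window, not measured sites.

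The arrays were checked before the groups were compared. Sftpc (surfactant protein C of alveolar type 2 cells) read 13.31 and 13.38 on the smoke LPS arrays, against 13.08, 13.62 and 13.09 on the air LPS arrays, so this lung marker was bright on all 5. Saa3, serum amyloid A3, an acute-phase gene of LPS-treated lung, lay between 12.24 and 12.75 on the 5 LPS arrays and between 6.22 and 8.95 on the 6 saline arrays, each array on the side its label gives. The air LPS arrays were less alike than the smoke LPS pair. The smoke LPS pair correlated at 0.989 over the genes tested. Air LPS 2 correlated at 0.982 and 0.985 with the smoke LPS arrays, more than with air LPS 1 (0.969) or air LPS 3 (0.966). Air LPS 3 had the weakest LPS pattern: it correlated at 0.931 to 0.944 with the saline arrays, and the other 4 LPS arrays at 0.855 to 0.909. Its mean over 32 cytokine and chemokine genes was 0.55 below the average of the 5 LPS arrays. For gene lists that turn on 1 array, the value without it is given beside them. Arrays are few, and their number limits the precision of every value.

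Each gene was tested with limma in a fit of the 4 instilled AKR groups (11 arrays), without any C57 array, and p-values were adjusted by the Benjamini-Hochberg method over 13902 genes. At an adjusted p under 0.05, 5 genes rose with smoke, 0.036% of those tested, and 0 fell. At an unadjusted p under 0.05 there were 1583 genes with a positive and 667 with a negative difference. The smoke LPS arrays both lay above all 3 air LPS arrays for 24.9% of genes and below them for 10.9%. Over all genes the median difference was 0.05, the median size of a difference was 0.15, and 59.8% of differences were above 0 (49.6% after centring each array on its median). The number that passed depended on the arrays used. Without air LPS 2, the control most like the smoke LPS arrays, it was 434 (328 higher and 106 lower). Without air LPS 3 it was 17 (8 higher and 9 lower), and all 5 genes were among them each time. Leaving out the control nearest to smoke LPS tends to widen the differences. The counts without air LPS 2, here and in the lists below, are therefore no separate support for a smoke difference. Of the 83 genes named with LPS values, 40 that had not passed did so without air LPS 2. Without smoke LPS 1 the number was 2. With the compared 5 arrays fitted alone Rnase2a passed (adjusted p = 0.0337), while the adjusted p was 0.0772 for Hal, 0.101 for Marco, 0.263 for Saa2 and 0.296 for Slc16a6. Rnase2a and Saa2 entered the test through the smoke LPS arrays alone, as did 43 genes in all: a gene had to lie above the array's 40th percentile on 2 of the 5 LPS arrays, and neither gene did so on an air LPS array. Without that filter both passed as well, with an adjusted p of 6e-05 and 0.0111.

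**Figure D1:**
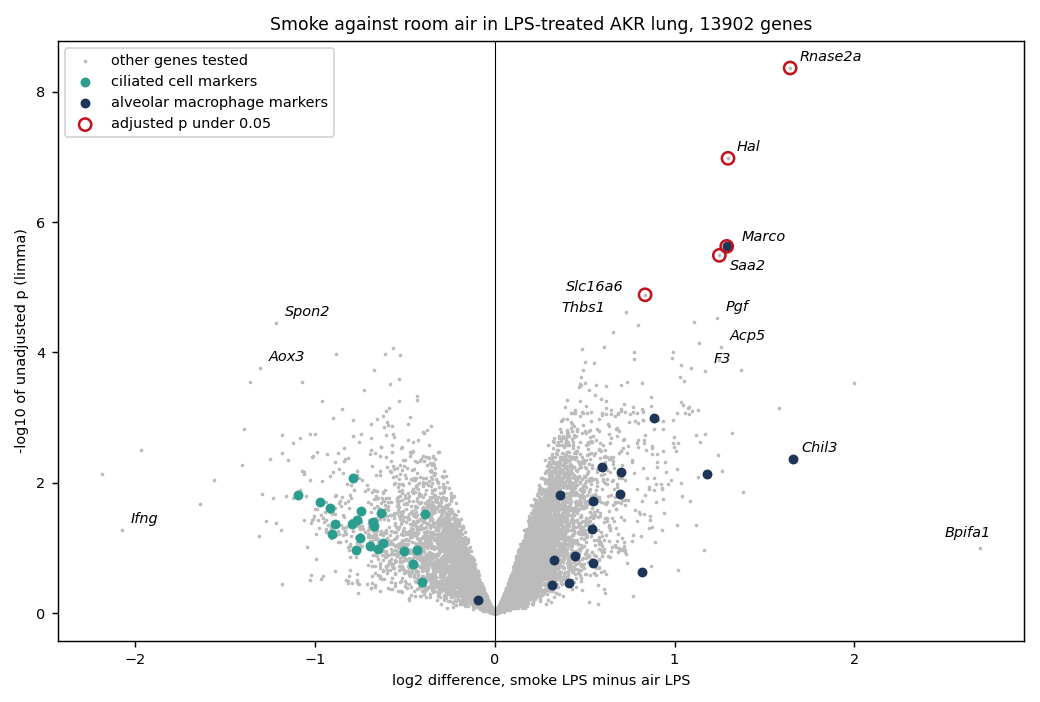
Each point is 1 of the 13902 genes tested, by its log2 difference between smoke LPS and air LPS lungs (x axis) and the -log10 of its unadjusted limma p (y axis); red rings mark the 5 genes that passed. Alveolar macrophage markers (dark blue) lie right of 0 but for 1 and ciliated cell markers (green) all lie left of 0, mostly at small values on the y axis, and Ifng and Bpifa1 combine large differences with large spread.

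Rnase2a, which encodes a secreted ribonuclease of the eosinophil-associated family, had 6.24 and 6.36 on the smoke LPS arrays, against 4.69, 4.64 and 4.63 on the air LPS arrays. It rose by 1.64 ± 0.09 (standard error, as after every ± of a difference; adjusted p = 6.03e-05). No fold is given, since the air LPS values lay below the 40th percentile of their arrays (6.24 to 6.27). On the smoke LPS arrays Rnase2a lay little above that percentile (6.19 and 6.22). On all 9 other AKR instilled arrays it was near 4.7, from 4.60 to 4.82, so only both smoke LPS arrays stood apart. This gene belongs to a family of near-identical copies, and probes of 1 copy can catch another. Its annotated neighbours Ear6, Ear14 and Rnase2b did not show the step: Ear6 read 5.84 and 6.13 with smoke and LPS, against 5.84, 5.81 and 5.84 with air and LPS. Rnase2b read 3.74 and 3.81 against 4.05, 3.95 and 4.03, and Ear14 read 3.27 and 3.49 against 3.40, 3.49 and 3.64. All these values lay below the 40th percentile of their arrays, where a step may be hidden. Whether another copy added to the Rnase2a signal was not tested.

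Hal, histidine ammonia-lyase, which starts the breakdown of histidine, had 9.67 and 9.51 in smoke LPS lungs, against 8.28, 8.30 and 8.30 in air LPS lungs. It rose by 1.30 ± 0.10 (adjusted p = 0.000733), 2.46-fold. The saline arrays were between 6.76 and 7.11, so Hal was highest with both exposures, and with air LPS it lay between.

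Marco, a scavenger receptor of macrophages that binds bacteria and inhaled particles, had 8.37 and 8.51 in smoke LPS lungs, against 7.23, 7.02 and 7.20 in air LPS lungs. It rose by 1.29 ± 0.14 (adjusted p = 0.0109), 2.45-fold. It lay between 5.99 and 6.45 on the saline arrays. With only 1 smoke LPS array the call was lost, with an adjusted p of 0.109 without smoke LPS 1 and 0.209 without smoke LPS 2.

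Saa2, serum amyloid A2, an acute-phase apolipoprotein, had 6.82 and 6.35 in smoke LPS lungs, against 5.31, 5.28 and 5.42 in air LPS lungs, and rose by 1.25 ± 0.14 (adjusted p = 0.0113), its air LPS values too lying below the 40th percentile. Saa1, nearly identical in sequence, had 5.31 and 5.39 in smoke LPS lungs, against 4.14, 4.51 and 4.75 in air LPS lungs, so which copy the probes read is uncertain. Saa3, at a much brighter probe set, had 12.43 and 12.31 against 12.24, 12.31 and 12.75 in the same order of groups. The groups of Saa3 overlapped (difference -0.06 ± 0.65). The call of Saa2 was lost without smoke LPS 1 (adjusted p = 0.109), without air LPS 1 (0.0654) and with the replicate number as a block (0.0931).

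Slc16a6, a monocarboxylate transporter gene on chromosome 11, had 8.86 and 8.80 in smoke LPS lungs, against 7.82, 8.07 and 8.09 in air LPS lungs. It rose by 0.84 ± 0.11 (adjusted p = 0.0363), 1.79-fold, the smallest change of the 5 and the least secure. Its adjusted p was above 0.05 when either smoke LPS array, air LPS 1 or any of 5 saline arrays was left out, the highest being 0.494 without smoke LPS 1, and it was 0.0596 after a second quantile normalization and 0.0527 after median centring.

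**Figure D2:**
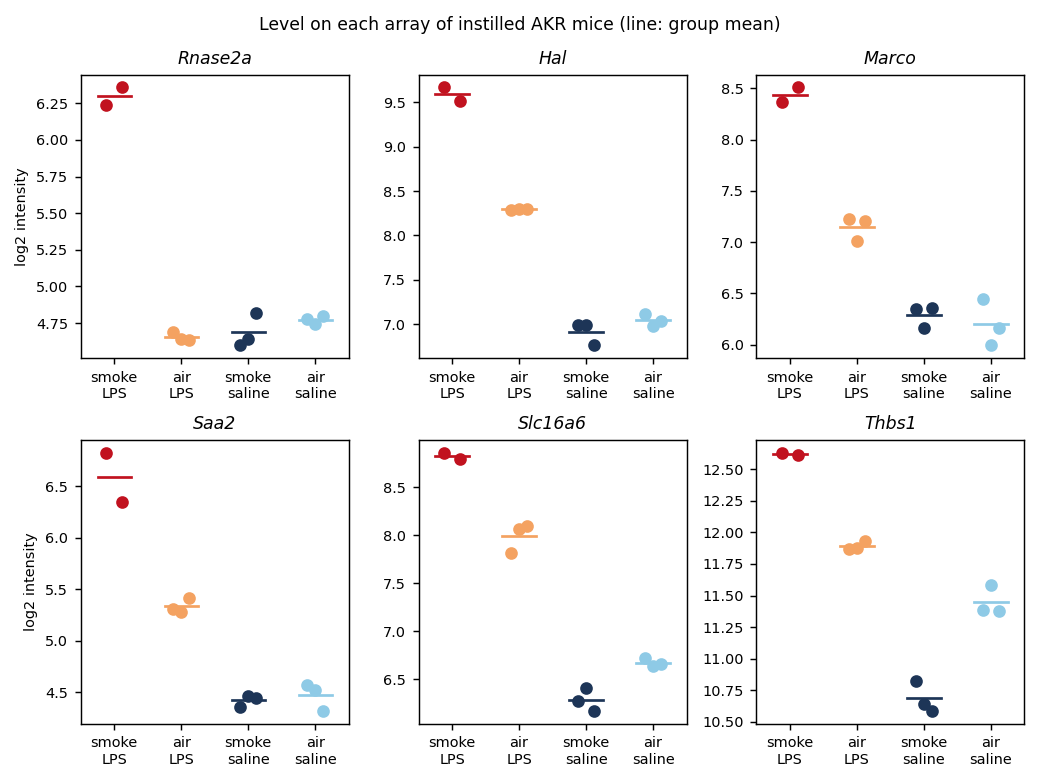
Log2 intensity (y axis) of the 5 genes that rose, and of Thbs1, on each of the 11 arrays of the instilled AKR groups (points, with a line at each group mean). Rnase2a is near 4.7 in all groups but smoke LPS, Hal, Marco, Saa2 and Slc16a6 are highest in smoke LPS, lower in air LPS and lowest in the saline groups, and Thbs1 is lowest in smoke saline and highest in smoke LPS.

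Below the threshold, the positive differences that were next by the moderated t, among genes without overlap between the groups, had an adjusted p of 0.0529 or more. Thbs1, thrombospondin 1, a matrix glycoprotein released by platelets and macrophages, had 12.63 and 12.62 in smoke LPS lungs, against 11.87, 11.88 and 11.93 in air LPS lungs (0.73 ± 0.10, adjusted p = 0.0529). Pgf, placental growth factor, a ligand of the receptor VEGFR1, had 8.60 and 8.58 against 6.93, 7.50 and 7.64 (1.23 ± 0.17, adjusted p = 0.0529). Acp5, a lysosomal phosphatase of osteoclasts and alveolar macrophages, had 10.71 and 10.39 in smoke LPS lungs, against 9.28, 9.43 and 9.16 in air LPS lungs (1.26 ± 0.20, adjusted p = 0.0732). The other 4 were Ankrd22 (1.11), Pappa, a metalloprotease that cleaves IGF-binding proteins (0.80), Slc6a12, a betaine and GABA transporter (0.66), and Lrrc25 (1.14), a leucine-rich repeat protein of myeloid cells.

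Among negative differences the first by the same rule was Spon2, spondin 2, a matrix protein that binds LPS. It had 6.39 and 6.45 in smoke LPS lungs, against 7.78, 7.21 and 7.93 in air LPS lungs (-1.22 ± 0.17, adjusted p = 0.0529), and it passed without air LPS 2 (adjusted p = 0.000582). Aox3, an aldehyde oxidase, had 7.63 and 7.83 against 9.39, 8.77 and 8.94 (-1.31 ± 0.23, adjusted p = 0.0803). Scgb1c1, a secretoglobin, had 8.36 and 8.30 in smoke LPS lungs, against 9.79, 9.24 and 10.04 in air LPS lungs (-1.36 ± 0.25, adjusted p = 0.0923). Atp7b, a copper transporter, differed by -1.07 ± 0.20 (adjusted p = 0.0923). The other 8, among them Myh7, the slow myosin heavy chain (-0.73), Atp8a1, a phospholipid flippase (-0.53), and the long noncoding RNA Lncpint (-0.61), lay between -0.88 and -0.53.

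Most macrophage genes had positive differences. Of 17 alveolar macrophage markers tested, 1 (Marco) passed, 16 had a difference above 0, and in 11 both smoke LPS arrays lay above all air LPS arrays, as they did in 24.9% of all genes. Their median difference was 0.55, against 0.05 over all genes. Chil3, a chitinase-like lectin of alternatively activated macrophages, had 8.54 and 9.10 in smoke LPS lungs, against 6.72, 7.79 and 6.97 in air LPS lungs (1.66 ± 0.45, adjusted p = 0.167), and its probes can catch the near-identical Chil4. Atp6v0d2, a subunit of the lysosomal proton pump, had 9.74 and 10.16 against 8.10, 9.58 and 8.62 (1.18 ± 0.35). Siglec1, the sialic acid receptor CD169, had 8.73 and 8.66 in smoke LPS lungs, against 8.16, 7.96 and 7.32 in air LPS lungs (0.88 ± 0.19). The exception was Siglecf, the Siglec of alveolar macrophages and eosinophils, with 6.85 and 7.0 against 6.99, 7.08 and 6.98. In whole lung, a change in the number of cells of a type and a change in RNA per cell cannot be told apart.

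Of 17 genes of lipid-laden and smoke-associated macrophages 0 passed. Of these 17, 15 were above 0 and 12 lay wholly above the air LPS arrays, beside 59.8% and 24.9% of all genes. Their median was 0.54, and 6 of the 17 are alveolar macrophage markers as well. Gpnmb, a lysosomal glycoprotein of foamy macrophages, had 9.0 and 8.99 in smoke LPS lungs, against 7.50, 8.38 and 7.94 in air LPS lungs (1.06 ± 0.23, adjusted p = 0.118). Cd68, a lysosomal glycoprotein used to stain macrophages, had 10.79 and 10.63 against 9.84, 10.16 and 9.66 (0.82 ± 0.18). Mmp12, the macrophage elastase, had 7.46 and 7.1 in smoke LPS lungs, against 6.36, 6.59 and 6.41 in air LPS lungs (0.82 ± 0.17). Air LPS 2 was the nearest control in Gpnmb, Cd68 and Mmp12. Without it 3 alveolar macrophage markers and 4 genes of the lipid-laden list passed, beside 434 of all 13902 genes. The medians were then 0.69 in both lists, beside 0.07 over all genes. Without air LPS 3 the medians of the lists were 0.54 and 0.46.

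**Figure D3:**
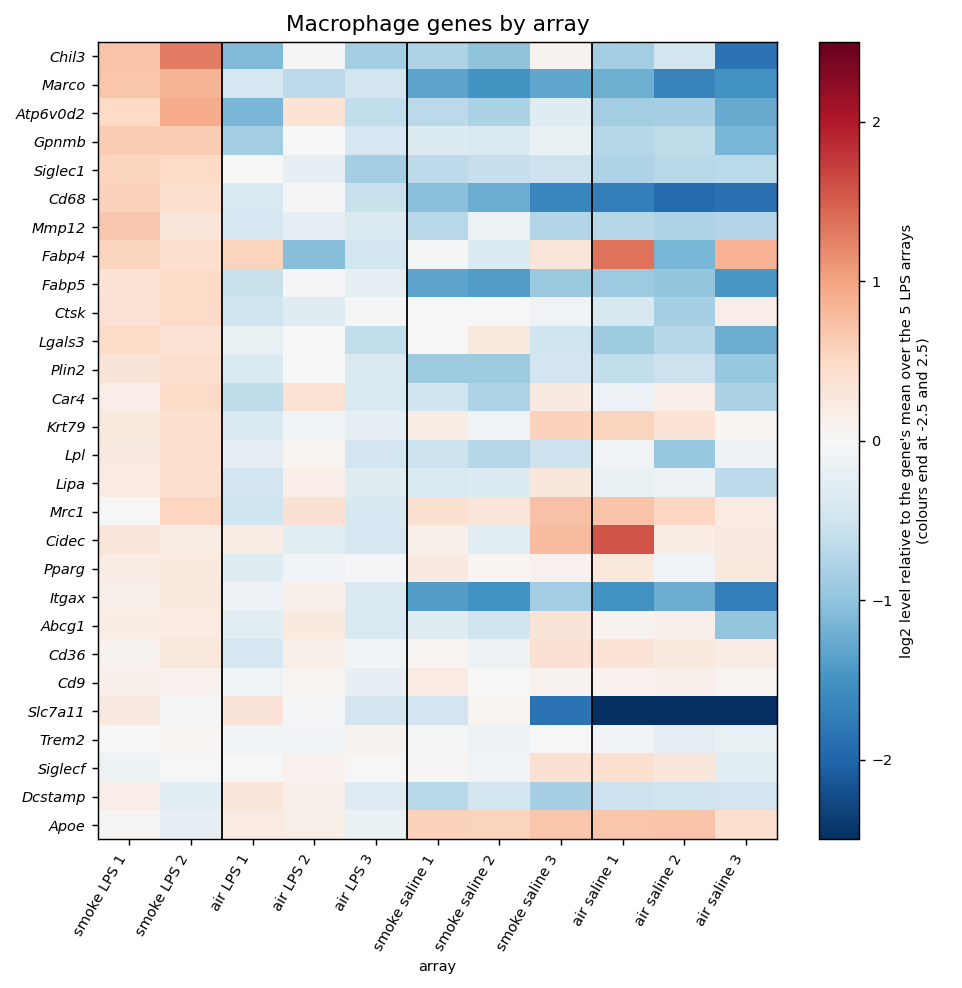
Log2 level of the tested alveolar macrophage and lipid-laden macrophage genes (down the page, ordered by the smoke LPS minus air LPS difference) on each of the 11 arrays (across), as a colour relative to the gene's mean over the 5 LPS arrays. The smoke LPS columns are redder than the air LPS columns for most genes, air LPS 2 is the palest control, and Slc7a11 is far below its LPS levels in air saline.

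Monocyte and neutrophil genes gave smaller medians. Of 17 monocyte and interstitial macrophage markers 0 passed, 11 were above 0 and the median was 0.06. It was -0.04 without air LPS 3. Without air LPS 2 it was 0.25 and 2 passed, beside 434 of all 13902 genes. Itgam, the integrin CD11b, had 11.06 and 10.98 in smoke LPS lungs, against 10.16, 10.36 and 10.09 in air LPS lungs (0.82 ± 0.15, adjusted p = 0.0923). Of 17 neutrophil markers 0 passed and 12 were above 0, with a median of 0.17. Without air LPS 2 the median was 0.32 and 4 passed, beside 434 of all genes. Trem1, a receptor that amplifies inflammation in myeloid cells, differed by 0.95 ± 0.26 and Il1r2, the decoy interleukin 1 receptor, by 0.84 ± 0.22. S100a8, a calcium-binding alarmin of neutrophils, had 10.95 and 11.09 against 10.57, 10.93 and 10.06 (0.50 ± 0.41). The groups of its partner S100a9 overlapped (-0.07 ± 0.41).

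Of 27 genes that sense LPS and other microbial products, Marco passed, 19 were above 0 and 11 lay wholly above the air LPS arrays, beside 24.9% of all genes, with a median of 0.19. That side rested on air LPS 3: without it the median was 0.003 and 14 were above 0. Without air LPS 2 the median was 0.35 and 5 passed, beside 434 of all 13902 genes. Ly96, which encodes MD-2, had 10.33 and 10.50 in smoke LPS lungs, against 8.85, 10.16 and 9.15 in air LPS lungs (1.03 ± 0.33, adjusted p = 0.199). Tlr13, a receptor for bacterial ribosomal RNA, had 10.02 and 9.88 against 8.66, 9.54 and 8.62 (1.01 ± 0.26), and Tlr7, a receptor for single-stranded RNA, differed by 0.67 ± 0.37. Irak3, a brake on Toll-like receptor signalling from the list of NF-kB feedback genes, had 10.81 and 10.78 in smoke LPS lungs, against 9.96, 10.22 and 9.59 in air LPS lungs (0.87 ± 0.17, adjusted p = 0.118).

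Most cytokine and chemokine genes overlapped between the groups. Of 32 tested 0 passed, 6 lay wholly above and 1 wholly below the air LPS arrays, beside 24.9% and 10.9% of all genes, and the median was 0.18. Without air LPS 3 the median was -0.02 and 2 passed, beside 17 of all 13902 genes. Without air LPS 2 it was 0.32 and 3 passed, beside 434 of all genes. Tnf had 10.50 and 10.70 in smoke LPS lungs, against 10.91, 10.71 and 9.35 in air LPS lungs (0.28 ± 0.36). Il1b, interleukin 1 beta, had 12.13 and 11.92 against 12.34, 12.10 and 11.56 (0.02 ± 0.33), and Il6 had 8.78 and 8.41 against 9.29, 9.45 and 8.22 (-0.39 ± 0.39). The lowest value of each was on air LPS 3. Of the neutrophil chemokines, Cxcl3 had 10.01 and 9.59 in smoke LPS lungs, against 8.54, 9.04 and 8.85 in air LPS lungs (0.99 ± 0.16, adjusted p = 0.0745). Cxcl1 (0.19 ± 0.22), Cxcl2 (0.23 ± 0.36) and Cxcl5 (0.05 ± 0.27) overlapped. Il33, an alarmin stored in epithelial nuclei, had 10.10 and 10.08 in smoke LPS lungs, against 9.01, 9.30 and 9.26 in air LPS lungs (0.90 ± 0.24, adjusted p = 0.165).

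Interferon gamma stood apart for its spread. Ifng had 7.44 and 7.62 in smoke LPS lungs, against 11.16, 10.70 and 6.96 in air LPS lungs (-2.07 ± 0.95, adjusted p = 0.314). Air LPS 1 and 2 were over 3 log2 units above both smoke LPS arrays and air LPS 3 was below them, so the groups overlapped. Without air LPS 3 the difference was -3.40 ± 0.19 and passed (adjusted p = 0.000341). The saline arrays were between 5.14 and 5.73. Il12b, the p40 subunit of interleukins 12 and 23, repeated that order with 6.46 and 6.53 against 8.12, 8.13 and 6.31. Without air LPS 3 it too passed (-1.63 ± 0.12, adjusted p = 0.000951). In both genes air LPS 3 was the only air LPS array that was not above smoke LPS. Leaving it out takes away the overlap, so these passes are no separate support for a fall. All 16 interferon gamma-induced genes tested had a difference below 0, with a median of -0.37, while 59.8% of all genes were above 0. In 0 of the 16 did the groups separate, beside 10.9% of all genes wholly below and 24.9% wholly above the air LPS arrays. Ido1, which degrades tryptophan, had 7.35 and 7.46 in smoke LPS lungs, against 8.91, 9.79 and 7.33 in air LPS lungs (-1.27 ± 0.53). Ciita, the master activator of MHC class II genes, had 8.27 and 8.11 against 8.99, 9.67 and 8.13 (-0.74 ± 0.33). The chemokine Cxcl9 differed by -0.39 ± 0.49. Without air LPS 3 the median of the list was -0.76, and without air LPS 2 it was -0.09. Of 24 interferon-stimulated genes 19 were above 0 with a median of 0.20; air LPS 3 was lowest on them, its mean being 0.90 below the average of the 5 arrays. Without air LPS 3 the direction turned, with 5 of 24 above 0 and a median of -0.19.

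The acute-phase list had no common direction: of 19 genes 1 (Saa2) passed, 9 were above 0 and the median was -0.01. Orm3, an orosomucoid, had 8.09 and 7.66 in smoke LPS lungs, against 6.23, 6.94 and 6.36 in air LPS lungs (1.37 ± 0.24, adjusted p = 0.0803). Its close copy Orm2 had 11.15 and 10.22 against 11.85, 10.86 and 12.43 (-1.03 ± 0.97), and the signals of these copies may be mixed. Hpx, hemopexin, which binds free haem, had 8.84 and 8.24 in smoke LPS lungs, against 9.44, 9.31 and 10.11 in air LPS lungs (-1.08 ± 0.36). Lcn2, the iron-sequestering lipocalin 2, had 13.62 and 13.46 against 13.43, 13.56 and 13.74 (-0.04 ± 0.47).

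Coagulation genes had a median difference of 0.48: of 16 tested 0 passed, 14 were above 0, beside 59.8% of all genes, and 7 lay wholly above the air LPS arrays, beside 24.9%. F3, tissue factor, which starts clotting, had 11.40 and 11.69 in smoke LPS lungs, against 10.40, 10.78 and 9.95 in air LPS lungs (1.17 ± 0.21, adjusted p = 0.0803). F10, coagulation factor X, differed by 1.13 ± 0.24 with no overlap between the groups, and F7, the factor that tissue factor binds, differed by 0.83 ± 0.20. Without air LPS 2, 4 coagulation genes passed, beside 434 of all 13902 genes, and without air LPS 3 the median was 0.30. Among 13 endothelial activation genes 10 were above 0 and 5 lay wholly above, beside the same shares of all genes. Their median was 0.23, and 0.10 without air LPS 3. Without air LPS 2 it was 0.39 and 2 passed, beside 434 of all genes. Sele, E-selectin, had 9.04 and 8.68 in smoke LPS lungs, against 7.79, 8.52 and 7.82 in air LPS lungs (0.82 ± 0.29). Angpt2, angiopoietin 2, which loosens the vessel wall, had 8.22 and 8.32 against 7.55, 8.11 and 7.29 (0.62 ± 0.23). Icam1 overlapped (0.23 ± 0.19). Of 25 endothelial identity genes 22 were above 0, with a median of 0.31, but only 6 lay wholly above, near the 24.9% of all genes. On this list air LPS 2, with a mean of 0.24, was at the level of the smoke LPS arrays at 0.10 and 0.25.

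Of 19 matrix-degrading proteases and their inhibitors 0 passed. Of these 19, 16 were above 0 and 10 lay wholly above the air LPS arrays, beside 59.8% and 24.9% of all genes. Their median was 0.45, and 6 passed without air LPS 2, beside 434 of all 13902 genes. Slpi, an inhibitor of neutrophil elastase, had 10.96 and 10.79 in smoke LPS lungs, against 9.56, 9.91 and 9.76 in air LPS lungs (1.13 ± 0.35, adjusted p = 0.191). Mmp13, a collagenase, differed by 0.77 ± 0.16 and Mmp19 by 0.70 ± 0.13 (adjusted p = 0.0923). The 29 matrix genes had no common direction, with 12 above 0. Lox, which cross-links collagen and elastin, had 10.23 and 10.62 in smoke LPS lungs, against 9.08, 10.17 and 9.33 in air LPS lungs (0.90 ± 0.32). Col1a1 (-0.67 ± 0.25) and Eln, elastin (-0.66 ± 0.23), were on the other side. Of 16 complement genes 0 passed and 5 were above 0, beside 59.8% of all genes. Of these 16, 3 lay wholly above and 5 wholly below the air LPS arrays, beside 24.9% and 10.9% of all genes. Their median was -0.10, and 0.003 without air LPS 2. Hc, which encodes component C5, had 7.62 and 8.69 in smoke LPS lungs, against 9.23, 9.85 and 9.57 in air LPS lungs (-1.39 ± 0.32, adjusted p = 0.139). C5ar1, a receptor for the fragment C5a, had 9.62 and 9.65 against 8.68, 9.26 and 8.64 (0.77 ± 0.23).

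Ciliated, club cell and mucin genes were mostly on the negative side. Basal and squamous epithelial markers were not: of 9 tested 0 passed, 8 were above 0 and 3 lay wholly above the air LPS arrays. The shares of all genes were 59.8% and 24.9%, and the median of these 9 was 0.28. Of 22 ciliated cell markers 0 passed, all 22 were below 0 and 10 lay wholly below the air LPS arrays, beside 10.9% of all genes, with a median of -0.72. Hydin, a protein of the ciliary central pair, had 7.94 and 7.59 in smoke LPS lungs, against 9.36, 8.13 and 9.09 in air LPS lungs (-1.10 ± 0.38, adjusted p = 0.234). Dnah9, an outer dynein arm heavy chain, had 7.76 and 7.61 against 9.06, 7.97 and 8.95 (-0.97 ± 0.35). Air LPS 2 was again the nearest control: the list's mean was -0.27 and -0.58 on the smoke LPS arrays, against 0.56, -0.27 and 0.55 on the air LPS arrays. Without air LPS 2 the median was -1.004 and 4 markers passed, beside 434 of all 13902 genes. The heart-type muscle genes, whose cells also line pulmonary veins in mice, had part of the same order. Their means were 0.29 and -1.09 on the smoke LPS arrays, against 1.06, -0.78 and 0.52 on the air LPS arrays, all 20 differences were below 0 with a median of -0.74, and the median was 0.04 without smoke LPS 2. The part of tissue sampling in the airway values was not tested.

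Of 21 club cell and airway secretory genes 0 passed and 5 were above 0, with a median of -0.32. Of these 21, 8 lay wholly below the air LPS arrays, beside 10.9% of all genes. Without air LPS 2, 4 passed, beside 434 of all 13902 genes. Aox3, above, led them. Pon1, paraoxonase 1, had 9.18 and 9.06 in smoke LPS lungs, against 10.50, 9.50 and 10.25 in air LPS lungs (-0.96 ± 0.30), and Scgb3a2, a secretoglobin of club cells, had 8.01 and 7.67 against 9.30, 7.98 and 8.81 (-0.86 ± 0.37). Bpifa1, an antimicrobial protein of upper airway and club cells, ran from 7.11 to 12.20 with no order by group: 12.20 and 10.40 in smoke LPS lungs, against 11.53, 7.17 and 7.11 in air LPS lungs (2.70 ± 1.49). Of 10 mucin and goblet cell genes 0 were above 0. Muc5b, the main airway mucin, had 10.43 and 9.19 in smoke LPS lungs, against 12.17, 9.78 and 11.03 in air LPS lungs (-1.18 ± 1.23). Alveolar type 1 markers were above 0 in 13 of 15, beside 59.8% of all genes. Only 2 of the 15 lay wholly above the air LPS arrays, beside 24.9% of all genes. Their median was 0.31, and it ran from 0.19 without smoke LPS 2 to 0.50 without air LPS 2.

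Lymphocyte genes were on the negative side with mostly overlapping groups. Of 15 T cell markers 0 passed, 0 were above 0 and 5 lay wholly below the air LPS arrays, beside 10.9% of all genes (median -0.39, and -0.20 without air LPS 1). Lat, an adaptor of the T cell receptor, had 7.79 and 7.55 in smoke LPS lungs, against 8.58, 8.10 and 7.94 in air LPS lungs (-0.54 ± 0.19). Cd3e, a chain of that receptor complex, had 8.32 and 7.74 against 9.19, 8.37 and 8.01 (-0.49 ± 0.29). The median over 11 natural killer cell markers was -0.41, and it was -0.12 without air LPS 2. Without air LPS 3 this median was -0.76 and 1 marker passed, beside 17 of all 13902 genes. The median over 15 B cell markers was -0.31, and its sign rested on single arrays. It was 0.02, with 10 above 0, without smoke LPS 2, and -0.01 without air LPS 1. All 9 MHC class II genes were below 0 (median -0.31, and -0.17 without air LPS 2 or -0.51 without air LPS 3), and with saline all 9 were as well (median -0.37). H2-Eb1, the class II E beta chain, had 9.28 and 8.87 in smoke LPS lungs, against 9.98, 9.91 and 9.40 in air LPS lungs (-0.69 ± 0.18, adjusted p = 0.163).

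**Figure D4:**
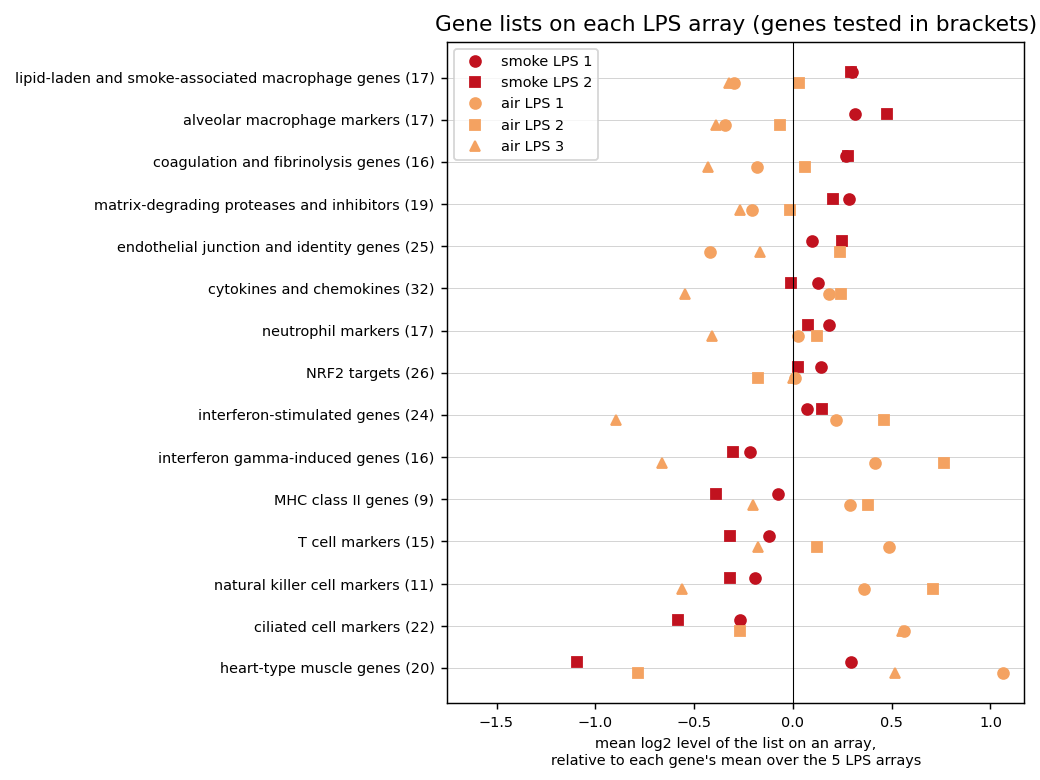
Mean log2 level of 15 gene lists (down the page, with the number of genes tested) on each of the 5 LPS arrays (x axis, relative to each gene's mean over the 5; red smoke LPS, orange air LPS, shape for the replicate). The smoke LPS arrays lie right of all air LPS arrays for the macrophage, coagulation and protease lists, air LPS 2 meets them for the endothelial and ciliated lists, and air LPS 3 is far left for cytokine and interferon lists.

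Genes known to answer smoke itself are given here for both instillations. Nqo1, a quinone reductase induced through both the aryl hydrocarbon receptor and NRF2, had 7.21 and 7.14 in smoke LPS lungs, against 6.77, 6.24 and 6.45 in air LPS lungs (0.69 ± 0.33), and with saline it differed by 1.28 ± 0.29. Slc7a11, the cystine transporter that feeds glutathione synthesis, had 10.80 and 10.55 against 10.90, 10.55 and 10.14 with LPS (0.15 ± 0.47). With saline it had 10.11, 10.64 and 8.75 after smoke, against 6.73, 7.05 and 7.64 after air (2.69 ± 0.42, adjusted p = 0.129). The interaction of Slc7a11 did not pass (-2.55, adjusted p = 0.411). Of 26 NRF2 targets 0 passed with LPS, 20 were above 0 and 10 lay wholly above the air LPS arrays, beside 59.8% and 24.9% of all genes, with a median of 0.16, beside 24 above 0 and a median of 0.25 with saline. Hmox1, haem oxygenase 1, overlapped (0.30 ± 0.19). Cyp1a1, the classic target of the aryl hydrocarbon receptor, did not pass the filter on low values, and Cyp1b1 differed by -0.04 ± 0.30.

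Several clock genes and Spon2 had smoke differences of the same sign under both instillations. Per2, a repressor arm gene of the circadian clock, had 9.18 and 9.27 in smoke LPS lungs, against 8.53, 8.59 and 8.08 in air LPS lungs (0.83 ± 0.18, adjusted p = 0.118), and it differed by 0.92 ± 0.16 with saline. Arntl, which encodes the activator BMAL1, had 7.03 and 7.29 against 7.64, 7.67 and 7.80 with LPS (-0.55 ± 0.20), and differed by -1.05 ± 0.18 with saline. Cry1, another repressor, differed by 0.75 ± 0.16 with LPS and 0.65 ± 0.14 with saline. The labels used here give no hour of dissection. With saline, 4 genes passed (0.0288%, and 0.0144% in each direction): Spon2, which fell by 1.66 ± 0.16 (adjusted p = 0.0111), Thbs1, which fell by 0.76 ± 0.09 (adjusted p = 0.0281), and the clock genes Per3 and Hlf, which rose by 1.12 ± 0.12 and 0.86 ± 0.11 (adjusted p = 0.0214 and 0.0338). At an unadjusted p under 0.05 there were 927. Per3 and Hlf were named after their values were seen. Spon2 had 6.36, 6.46 and 6.33 in smoke saline lungs, against 8.13, 8.03 and 7.98 in air saline lungs, beside 6.39 and 6.45 in smoke LPS lungs, and its interaction was 0.44 (adjusted p = 0.698).

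Whether the smoke difference with LPS exceeded that with saline was tested as an interaction in the same fit. It passed for 4 genes, all positive (0.0288% of those tested): Rnase2a (1.73 ± 0.12, adjusted p = 0.000641), Thbs1 (1.49 ± 0.13, adjusted p = 0.00321), Hal (1.43 ± 0.13, adjusted p = 0.00321) and Slc16a6 (1.23 ± 0.14, adjusted p = 0.0203). At an unadjusted p under 0.05 there were 1028. The Rnase2a values on the saline and air LPS arrays all lay below the percentile used to filter low values. A smoke difference with saline may be hidden at such levels. For Rnase2a the interaction therefore cannot show that smoke acted only with LPS. In Thbs1 and Slc16a6 the sign turned. Slc16a6 differed by -0.39 ± 0.10 with saline, where it did not pass, and by 0.84 with LPS. Thbs1, with saline, had 10.83, 10.64 and 10.59 in smoke lungs, against 11.38, 11.58 and 11.38 in air lungs, while with LPS its difference was 0.73. Marco (1.20, adjusted p = 0.0986) and Saa2 (1.30, adjusted p = 0.0864) missed the threshold, with saline differences of 0.09 and -0.05. The saline values of Saa2 also lay below the filter percentile, so the same limit holds for it. The alveolar macrophage list had a saline median of -0.02 with 7 of 17 above 0, beside 0.55 with LPS. For ciliated markers the saline median was -0.03, beside -0.72 with LPS. The difference between instillations was not tested for the lists.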

How the data were processed

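Total RNA of whole lung was measured on Affymetrix arrays, and the authors deposited 1 column of log2 intensities per array for 35556 probe sets, made with RMA (background correction, quantile normalization and a summary of each set's probes) per the submitters' processing notes. The version of RMA and its settings are not given in the sources used here.

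The platform annotation names 1 gene for 21789 probe sets, several for 1621 and none for 12146. Entrez identifiers, 99.6% of them found in RefSeq (GRCm38.p6), gave current symbols. For 999 of 19938 genes with more than 1 probe set, the brightest over the 11 instilled AKR arrays was used. A gene was tested if it was above the array's 40th percentile on 2 or more of the 5 LPS arrays, which left 13902.

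The main fit was limma (3.58.1, R 4.3.3) on 11 arrays and 4 group means, with empirical Bayes moderation (7 residual and 10.1 moderated degrees of freedom), two-sided, with Benjamini-Hochberg adjustment and a threshold of 0.05. It was tested on simulated data. RMA shares its normalization over arrays, so a shift of many genes on 1 array is partly removed. Alternatives were other sets of arrays, a replicate block, other scalings, filters and moderation, array weights and leaving out each array. The C57 arrays were not fitted.

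The gene lists (51) and the comparison were chosen with earlier results of these data known. Named are, per direction, the genes that passed and, up to 12, those next by the moderated t without overlap, up to 4 members per list with the largest differences, and a fixed set of LPS and smoke genes. Others are said to be chosen after their values were seen, or mark the tissue. Same-numbered arrays were not treated as pairs. Python 3.11.15 with matplotlib 3.10.9 drew the plots.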

Additional observations from a re-analysis of the deposited data

Results flagged for a closer look

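The smoke difference with LPS minus the smoke difference with saline passed the limma test of that difference in 4 genes. It was 1.73 ± 0.12 on the log2 scale in Rnase2a (adjusted p = 0.000641), 1.43 ± 0.13 in Hal (0.00321), 1.49 ± 0.13 in Thbs1 (0.00321) and 1.23 ± 0.14 in Slc16a6 (0.0203). In Rnase2a and Hal the smoke difference with saline was near 0, at -0.09 ± 0.08 and -0.13 ± 0.09. All saline values of Rnase2a lay below the percentile used to filter low values. A smoke difference with saline may be hidden there, so its value near 0 does not show that smoke had no effect with saline. In Slc16a6 it was -0.39 ± 0.10, with all 3 smoke saline arrays (6.27, 6.41 and 6.17) below all 3 air saline arrays (6.72, 6.64 and 6.66), and in Thbs1 it was -0.76 ± 0.09. No group has 4 arrays or more, so single arrays were not tested as outliers.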

How the results depend on the processing

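The count of 5 genes for smoke against air with LPS was 1 when the compared arrays were fitted alone. It was 3 with the 60th percentile filter, which took Rnase2a and Saa2 out of the test. With array weights, whose estimation stopped before its convergence tolerance was reached, it was 1452. With all 16 AKR arrays it was 143 (116 higher and 27 lower). The 16 mix 2 value distributions: the 5th percentile of log2 values was 3.54 to 3.58 on 3 AKR room air arrays, against 3.23 to 3.35 on the other 13, and whether these were normalized apart was not tested. With those 13 alone, chosen after seeing the data, the count was 26. Leaving out 1 array gave 2 to 434. A second quantile normalization, median centring, no filter, trend and robust moderation and every probe set on its own gave 4 or 5. The interaction count of 4 was 16 with all 16 AKR arrays and 283 with array weights, and 3 to 7 when 1 array was left out; it cannot be had from the LPS arrays alone. The saline count of 4 was 1 with the compared arrays alone, 10 with all 16 AKR arrays, 525 with array weights and 0 to 20 when 1 array was left out. With the replicate number as a block the counts were 3 with LPS, 3 for the interaction and 0 with saline. Deviations from the group mean correlated above 0.1 in 7 of 15 pairs of same-numbered arrays of different groups (from -0.55 to 0.56). They did so in 12 of 30 pairs with different numbers. Between smoke LPS and air LPS the same-numbered pairs were at 0.56 (number 1) and 0.46 (number 2). The deviations of the 2 smoke LPS arrays mirror each other, so these pairs are not independent. Whether a number marks a shared batch was not tested.

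Over 83 named genes and 22 alternatives, 1638 of 1817 differences kept their sign and side of the threshold, 136 passed in addition, 20 no longer passed and 23 changed sign, all 23 in genes that did not pass. Under a second quantile normalization Lcn2 was 0.0726, Cxcl5 -0.0292, Il1b -0.0339 and Cyp1b1 0.00127. Under median centring Cxcl5 was -0.00289 and Il1b -0.0311, and with array weights Il1b was -0.0278. With the replicate block Saa3 was 0.276, Lcn2 0.0826 and Slc7a11 -0.0161. Leaving out 1 array gave -0.158 (without air LPS 1) to 0.099 (without air LPS 3) in Saa3, -0.118 to 0.0428 in Lcn2, -0.0705 to 0.448 in Cxcl1, -0.0754 to 0.177 in Cxcl5 and -0.208 (without air LPS 3) to 0.569 in Tnf. It gave -0.197 to 0.194 in Il1b, -0.258 to 0.0621 in S100a9, -0.261 to 0.124 in Cyp1b1 and -0.0489 to 0.333 in Slc7a11. Apart from fits with fewer or more arrays, the cause of these changes was not tested. With a lone smoke LPS array its spread is taken from the other groups.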

Other observations

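The C57 arrays took no part in the fit, and no test between strains was made. The 5th percentile of all log2 values was 3.48 to 3.63 on the 15 C57 arrays, against 3.25 to 3.35 on the 11 instilled AKR arrays, and whether the sets were normalized apart was not tested. Of the C57 arrays, 2 stood apart from the others of their label in the genes that rose in AKR. The array labelled smoke LPS 3 had 4.54 for Saa2, 6.82 for Marco and 6.98 for Slc16a6, lower than on the other C57 LPS arrays. The array labelled smoke saline 3 had 6.87 for Saa2, 8.17 for Marco and 8.04 for Slc16a6, higher than on the other C57 saline arrays. Marco had 7.93, 8.71 and 6.82 on the C57 arrays labelled smoke LPS, against 7.90, 7.87 and 7.88 on those labelled air LPS, so the groups overlapped with smoke LPS 3 and did not overlap without it. Rnase2a had 5.33, 5.26 and 4.45 on the C57 smoke LPS arrays, against 4.90, 5.85 and 5.44 on the C57 air LPS arrays, and overlapped with or without smoke LPS 3. Hal had 6.02, 6.16 and 8.73 on the C57 arrays labelled smoke LPS, against values between 5.83 and 6.33 on the 3 C57 air LPS arrays, the 8.73 being on smoke LPS 3.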
